A study of Caenorhabditis elegans with 2 samples.

Results

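Peaks of the tagged transcription factor CEBP-2 were examined at 9 heat-inducible chaperone genes of Caenorhabditis elegans, out of 19973 nuclear protein-coding genes. The genes were the Hsp70 genes F44E5.4, F44E5.5 and hsp-70 and the small heat shock genes hsp-16.1, hsp-16.11, hsp-16.2, hsp-16.41, hsp-16.48 and hsp-16.49. They were chosen by their role and with the peak lists already known, in which F44E5.4 stood out by its signal value. Peak membership, signal values, shared promoters and heat shock elements at summits are therefore given as descriptions, without tests. All chromatin came from 1 group of whole young adult worms, 64 h old, of strain OP331, grown from L1 larvae that had been starved after bleaching. This strain carries the integrated transgene wgIs331, in which C48E7.11 (cebp-2) is joined to a TY1 tag, EGFP and 3xFLAG, together with unc-119(+), in an unc-119(ed3) background. Antibodies against green fluorescent protein precipitated the fusion protein from 2 biological replicates. The labels name no heat treatment, and a control immunoprecipitation was not analysed here. Whole worms mix all tissues, so a peak does not say in which cells it arose.

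Hsp70 proteins bind unfolded stretches of other proteins and release them in cycles driven by ATP. Small heat shock proteins need no ATP and hold unfolding proteins until Hsp70 can act on them. In unstressed worms the inducible genes of both families are nearly silent, and on heating the heat shock factor HSF-1 activates them by binding heat shock elements, rows of short inverted repeats with the core GAA. CEBP-2 is a basic leucine zipper protein of the C/EBP family, a family that in mammals recognises TTGCGCAA and its variants rather than heat shock elements.

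The 8 members other than hsp-70 stand in 4 head-to-head pairs, in which the genes of a pair are read away from each other and share 1 promoter. The promoters are shown because they carry the contrast described below, a peak among the highest of the series at the first and none in the main list at the others. Capitals mark heat shock elements, here 3 or more units GAA and TTC in turn with 2 free bases between neighbours, on either strand and with overlapping matches joined. The 2-unit form would read GAANNTTC or TTCNNGAA. The strand is the plus strand of build ce11, so the left end faces the gene named first. Positions are chrII:11759337-11759636, chrV:1804958-1805181 and chrV:9087856-9088042.
F44E5.4/F44E5.5: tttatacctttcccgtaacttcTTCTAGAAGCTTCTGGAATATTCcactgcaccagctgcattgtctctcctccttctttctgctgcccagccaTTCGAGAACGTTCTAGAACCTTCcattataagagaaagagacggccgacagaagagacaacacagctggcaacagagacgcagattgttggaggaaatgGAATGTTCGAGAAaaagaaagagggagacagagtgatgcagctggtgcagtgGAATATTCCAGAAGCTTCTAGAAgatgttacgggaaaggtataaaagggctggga
hsp-16.2/hsp-16.41: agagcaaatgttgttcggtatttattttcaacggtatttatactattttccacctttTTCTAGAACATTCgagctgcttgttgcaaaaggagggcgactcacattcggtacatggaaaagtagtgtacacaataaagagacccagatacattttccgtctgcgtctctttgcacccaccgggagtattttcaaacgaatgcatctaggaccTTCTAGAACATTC
hsp-16.1/hsp-16.48: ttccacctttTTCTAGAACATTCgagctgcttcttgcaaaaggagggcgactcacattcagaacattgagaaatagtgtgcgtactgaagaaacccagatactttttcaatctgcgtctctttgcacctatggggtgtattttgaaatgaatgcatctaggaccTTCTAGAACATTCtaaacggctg
The promoter of hsp-16.11 and hsp-16.49, at chrV:9089855-9090041 on the minus strand, matched the last sequence in 187 of 187 bases and is not repeated. No sequence is shown for hsp-70.

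Both F44E5.4 and F44E5.5 had a peak of the main list, the authors' thresholded list for both replicates together, and the other 7 members had none at their promoters. A peak was assigned to a promoter when its summit fell in a window from 1000 bp before the gene's 5′ end to 200 bp after it. By that rule 2 of 9 members had a main-list peak, and 471 of 19973 protein-coding promoters (2.36%) did. The 2 members shared a single peak, so the count rests on 1 binding region. The same 2 members were the ones found with the conservative list (1.95% of all promoters), with the own list of replicate 1 (0.556%) and with the own list of replicate 2 (0.791%).

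The shared peak of F44E5.4 and F44E5.5 covered chrII:11759380-11759491, 112 bp of the 350 bp between the 5′ ends of the genes. Its summit, at 11759460, lay 149 bp upstream of F44E5.4 and 202 bp upstream of F44E5.5, outside any annotated gene. Its signal value, a measure of peak height from the authors' peak caller, was 278.8. It ranked 6 of 1419 peaks in the main list and 20 of 112494 in the ranked list behind it, which also holds the peaks below the threshold. In the ranked list 1535 peaks had at least the lowest main-list score, 830, so the main list leaves some of these out. The highest signal value was 3485 in the ranked list and 390.5 in the main list. The irreproducible discovery rate (IDR), which is low where a peak's rank repeats between the sets of peaks compared, was 2.24e-05 in that ranked list. The ranked list behind the conservative list gave this peak an IDR of 2.13e-05. Its score, which rises as the IDR falls, stood at the ceiling of 1000. Within the replicates' own lists the signal values were 151.3 in replicate 1, rank 2 of 254, and 135.1 in replicate 2, rank 25 of 386. Each list has its own scale, with a median signal value of 54.2 in replicate 1 and 68.5 in replicate 2, so no mean was taken. The peak was thus near the top of both lists, although its place was lower in replicate 2. The summits were 39 bp apart, and the peak of replicate 2 was 244 bp wide, against 103 bp in replicate 1. Median peak widths were 264 bp in the own list of replicate 1, 244 bp in that of replicate 2 and 270 bp in the main list. The narrow peaks were thus those of replicate 1 and of both replicates together.

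Among the 15296 promoters with any ranked peak, the F44E5 promoter came 2nd by highest signal value. It came 1st of 9731 such promoters in replicate 1 and 7th of 11656 in replicate 2. The highest value at a promoter, 284.1, belonged to rpl-3, a gene of a large ribosomal subunit protein. After F44E5.4 and F44E5.5 came fbxa-83 (229.3), nspc-17 (210.4), rpa-2 (206.7), the pair lin-54 and rpl-12 that shared a peak (200.9), and fbxb-58 (200.5). These were the genes closest to the F44E5 pair in the order of signal values over both replicates. All of their peaks lay in both replicates' own lists, and none had a heat shock element within 50 bp of its summit. Summits lay 291 bp upstream of rpl-3, 30 bp upstream of rpl-12 and 363 bp upstream of lin-54. Those at fbxa-83 (722 bp), nspc-17 (711 bp), rpa-2 (668 bp) and fbxb-58 (984 bp) lay farther upstream. The fbxa-83 peak overlapped the small nucleolar RNA gene Y67A10A.14.

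The F44E5.4 and F44E5.5 promoter held 4 separate heat shock elements. Working from F44E5.4, these lay 48 to 70, 120 to 142, 219 to 231 and 271 to 293 bp upstream of that gene. The third was 13 bp long and had 3 units, and the other 3 were 23 bp long and held at least 4 units. The second element ended 7 bp from the summit and lay inside the peak. In the sequence above it is TTCGAGAACGTTCTAGAACCTTC. Outside the elements, a TATA box (TATAAA, sought on both strands) stood 26 to 31 bp upstream of F44E5.4 and another 36 to 41 bp upstream of F44E5.5. The promoter is partly symmetrical: cut at its middle, its sides aligned at 67.0% identity after 1 of them was reverse-complemented, and their outer 80 bp at 76.7%.

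**Figure D1:**
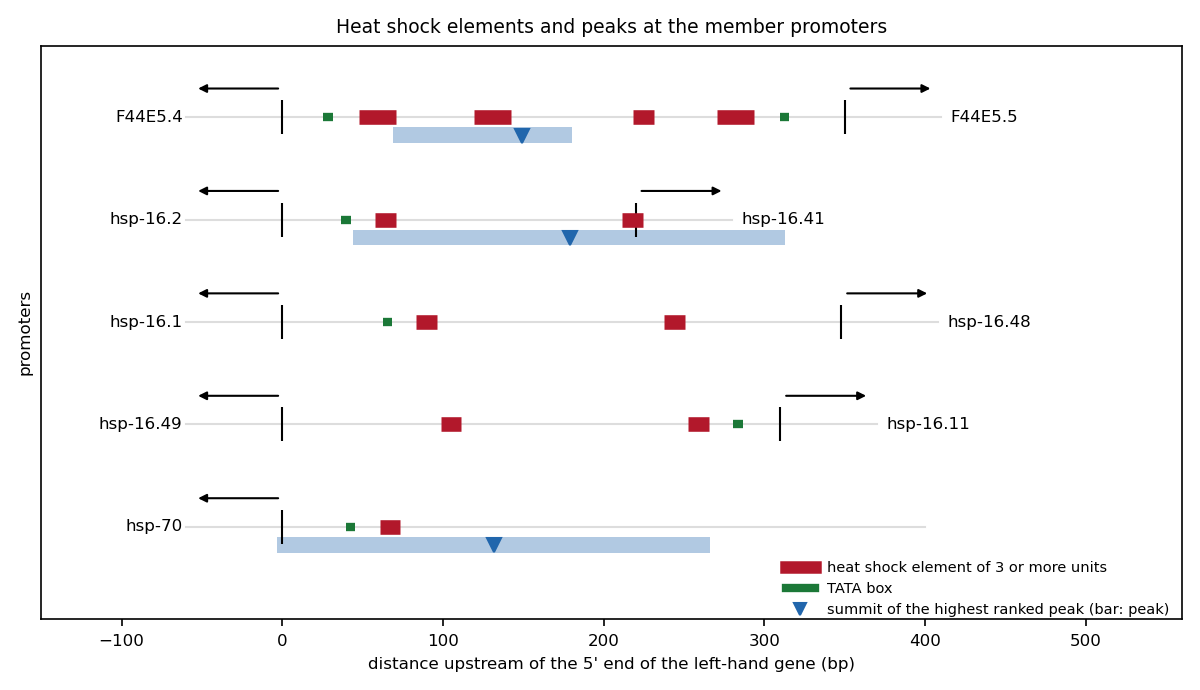
Heat shock elements (red), TATA boxes (green) and the highest ranked peak (blue bar, with its summit as a triangle) at the member promoters; the x axis is the distance in bp upstream of the 5′ end of the left-hand gene, and black ticks mark 5′ ends. In the list of both replicates together, the summit at F44E5.4 and F44E5.5 lies 7 bp from the second of 4 elements. The hsp-16.1/hsp-16.48 and hsp-16.49/hsp-16.11 promoters carry 2 elements each and no ranked peak between their 5′ ends.

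All 9 members had a heat shock element of at least 3 units in the promoter window, as did 1534 of all 19973 promoters (7.68%). A 4-unit element was in the windows of F44E5.4 and F44E5.5 and no other member, and in 0.826% of all promoters. At least 2 separate elements were in 8 of 9 members, all but hsp-70, and in 0.821% of all promoters. At least 4 separate elements were in F44E5.4 and F44E5.5 only among the members, and in 0.17% of all promoters. Across the genome, 33 of the 1534 promoters with a 3-unit element had a main-list peak (2.15%), and 4 of the 165 with a 4-unit element (2.42%), beside 2.36% of all promoters. The F44E5 pair accounted for 2 of those 4 promoters.

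Other sequences were sought in the same windows. The C/EBP sequences TTACACAA, TTACATAA, TTACGCAA, TTACGTAA, TTGCACAA, TTGCATAA, TTGCGCAA and TTGCGTAA were counted as one motif. At least 1 of them was in the windows of hsp-70, hsp-16.1, hsp-16.48 and hsp-16.49 (4 of 9 members) and in 28.5% of all promoters. None was in the window of F44E5.4 or F44E5.5. The match lay 982 to 989 bp upstream of hsp-16.1 and 985 to 992 bp upstream of hsp-16.48 and of hsp-16.49, near the far edge of the windows. At hsp-70 it lay inside the gene. The match of hsp-16.1, at chrV:9088764-9088771, lay inside a main-list peak described below, chrV:9088762-9089031, whose summit was outside the window. The E-box CACGTG was in 0 of 9 members and in 18.4% of all promoters. A TATA box was in 9 of 9 members and in 80% of all promoters. The nearest lay 179 to 184 bp upstream of hsp-16.41 and 281 to 286 bp upstream of hsp-16.48 and of hsp-16.49. The other members had one closer to the 5′ end.

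The third Hsp70 gene, hsp-70, had a ranked peak but no listed one. This gene lies on chromosome I at 9320325 to 9322519 on the minus strand, inside an intron of 3336 bp of uggt-2, a gene on the opposite strand whose product recognises misfolded glycoproteins. It aligned with F44E5.4 at 74.4% identity. The promoter peak, chrI:9322516-9322785, had its summit 132 bp upstream and a signal value of 48.3, rank 7898 of 112494. Its score of 664 and IDR of 0.025 fell below the main list, in which the lowest score was 830. In the ranked list behind the conservative list its score was 289 and its IDR 0.201. In the replicates' own ranked lists the signal values were 20.59 in replicate 1 and 20.64 in replicate 2, with summits 4 bp apart; the medians of those lists were 14.5 in replicate 1 and 19.8 in replicate 2. The IDR within each replicate was high, 0.769 in replicate 1 and 0.229 in replicate 2. The hsp-70 promoter thus stood at place 1990 of 15296 promoters in both replicates together, at 2437 of 9731 in replicate 1 and at 6746 of 11656 in replicate 2. It held a single heat shock element, 61 to 73 bp upstream and 59 bp from the summit, and a TATA box 40 to 45 bp upstream.

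Main-list signal near hsp-70 lay past its 3′ end instead. A peak at chrI:9319959-9320228 had a signal value of 91.0, a score of 1000 and a place in the conservative list, and it overlapped the transfer RNA genes C12C8.t1 and C12C8.t6. Another 4 ranked peaks had their summits inside the hsp-70 gene, and the highest of them had a signal value of 59.97 but a score of 258.

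The hsp-16.2 and hsp-16.41 pair also had a ranked peak below the main list. The 5′ ends are 220 bp apart, and the peak at chrV:1805001-1805270 had its summit at 1805136, 179 bp upstream of hsp-16.2 and 42 bp upstream of hsp-16.41. Its signal value was 38.6, rank 18787 of 112494, with a score of 573 and an IDR of 0.0416. In the ranked list behind the conservative list its score was 314 and its IDR 0.175. The replicates gave 18.4 in replicate 1 and 23.4 in replicate 2, with summits 13 bp apart. The IDR within each replicate was 0.533 in replicate 1 and 0.360 in replicate 2. The 2 elements of the promoter both lay inside the peak, at 109 and 33 bp from its summit, and the nearer one spans the annotated 5′ end of hsp-16.41. The pair stood at place 4258 of 15296 promoters with a peak, below the upper quartile of 40.1 and above the median of 29.8. A second ranked peak, inside hsp-16.2, had a signal value of 24.4 and a score of 426.

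**Figure D2:**
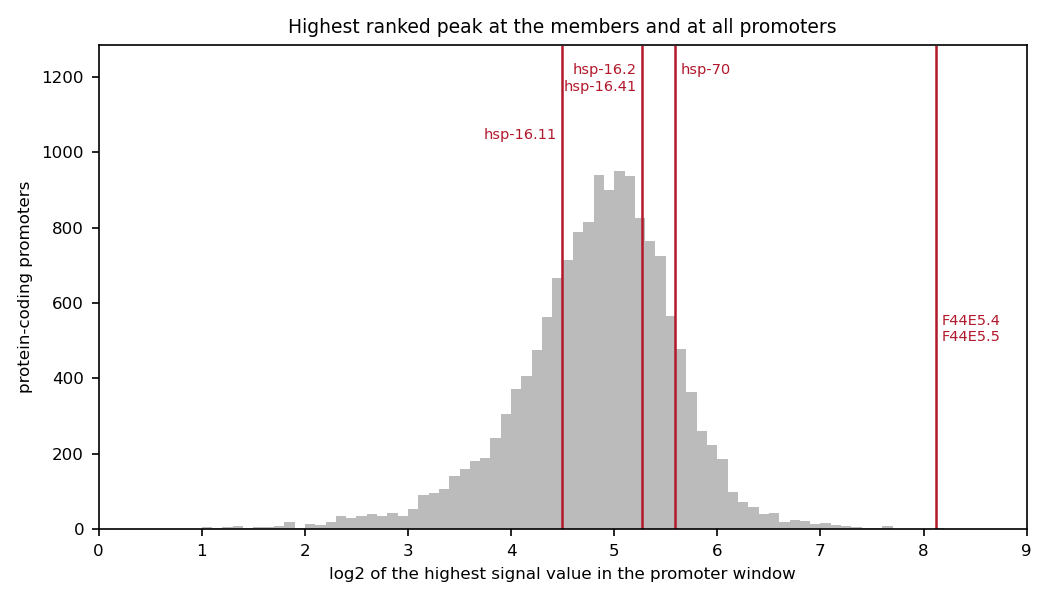
Histogram of the highest signal value (log2) in the promoter window of the 15296 protein-coding promoters with a ranked peak, with the members that had one marked by red lines. F44E5.4 and F44E5.5 (278.8) stand in the far right tail, hsp-70 (48.3) and hsp-16.2 with hsp-16.41 (38.6) lie in the upper part of the main body, and hsp-16.11 (22.5) lies below the median of 29.8.

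By signal value in both replicates together the order was F44E5.4 and F44E5.5, then hsp-70, then hsp-16.2 and hsp-16.41, then hsp-16.11, while hsp-16.1, hsp-16.48 and hsp-16.49 had no ranked peak at their promoters. The order of hsp-70 and the hsp-16.2 pair was not the same in both replicates: hsp-70 was higher in replicate 1 (20.59 against 18.4) and lower in replicate 2 (20.64 against 23.4). The F44E5 pair was above both in each replicate. A ranked peak of any rank was present at 6 of 9 members and at 76.6% of all promoters. In each replicate's own ranked list 5 of 9 members had one, against 48.7% of promoters in replicate 1 and 58.4% in replicate 2.

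The remaining 4 genes form a cluster on chromosome V, from 9087293 to 9090604. It is an inverted repeat whose arms, hsp-16.1 with hsp-16.48 and hsp-16.11 with hsp-16.49, are 1325 bp long each and identical in 1325 of 1325 positions. Each pair carries 2 heat shock elements between its genes, at 84 to 96 and 238 to 250 bp upstream of hsp-16.1. Compared with the hsp-16.2 and hsp-16.41 promoter, the sequence between the start codons of hsp-16.1 and hsp-16.48 aligned at 79.4% identity, and the elements of both promoters read TTCTAGAACATTC. In the ranked list of both replicates together no peak, at any score, touched chrV:9086908-9088761 or chrV:9089231-9090947, stretches of 1854 and 1717 bp that hold the genes and the sequence between the 5′ ends of each pair. Peaks in the replicates' own ranked lists reached into the edges of these stretches, at chrV:9086703-9086946 and chrV:9088735-9088978 in replicate 2 and at chrV:9090893-9091156 in replicate 1, but not into any of the 4 genes.

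Within the cluster, ranked peaks lay only between the 3′ ends of hsp-16.48 and hsp-16.49. The higher one, chrV:9088762-9089031, had a signal value of 50.3, a score of 948 and an IDR of 0.00519. It was in the main list but not in the conservative list or either replicate's own list. Its summit was 280 bp past the 3′ end of hsp-16.48 and 383 bp past that of hsp-16.49, and it lay 1115 bp upstream of hsp-16.1 and 1180 bp upstream of hsp-16.11, just outside the promoter windows. The lower one, with a signal value of 22.5 and a score of 135, had its summit 981 bp upstream of hsp-16.11, just inside the window. That position, 184 bp past the 3′ end of hsp-16.49, was the only reason for hsp-16.11 to count as a promoter with a ranked peak. Small nuclear RNA genes flank the cluster, and ranked peaks there had signal values of 56.8 at T27E4.11, 49.3 at T27E4.10 and 46.6 at T27E4.12, all below the main list.

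**Figure D3:**
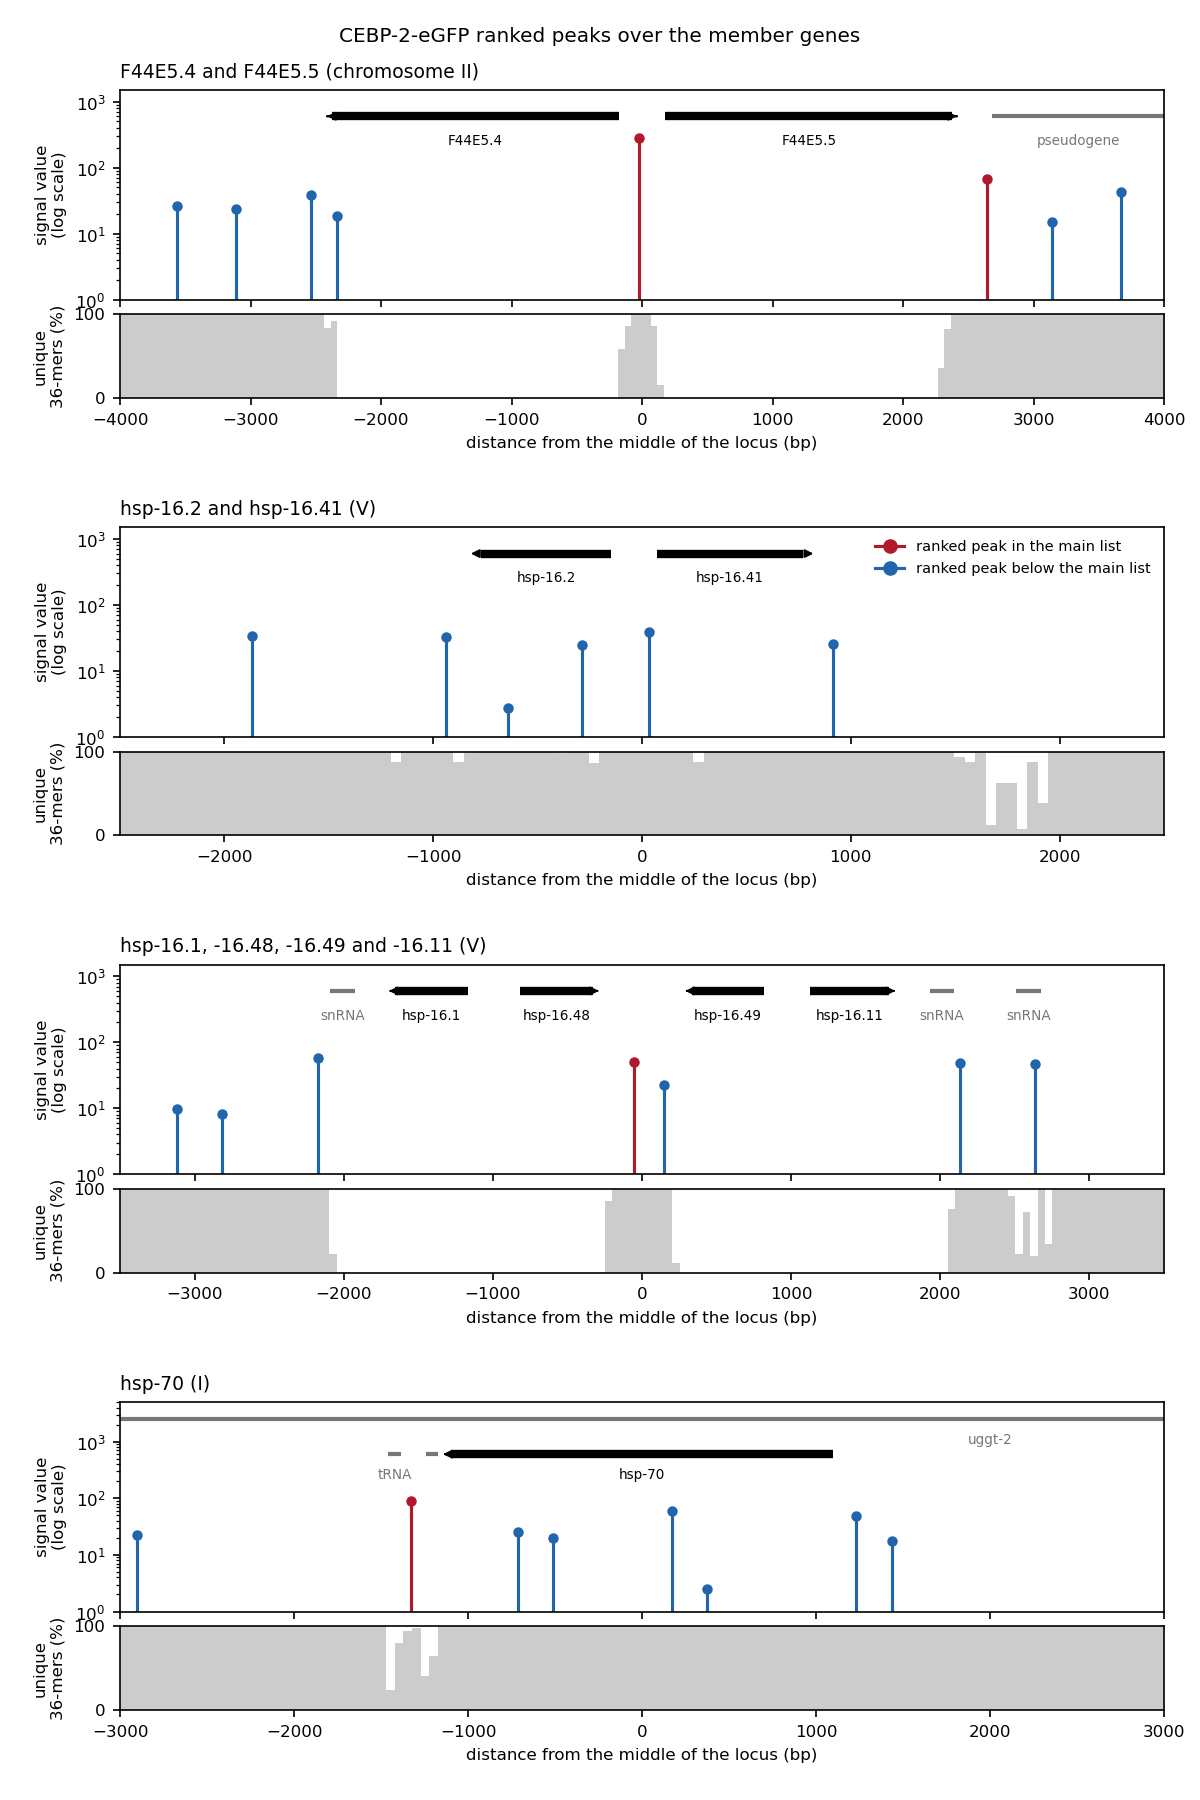
Ranked peaks at the 4 member loci, drawn at their summits by signal value (log scale) and distance in bp from the middle of the locus; red peaks are in the main list, black bars are members with arrows in the direction of transcription, grey bars are other genes, and grey areas give the share of 36-mers that occur once in the genome. Where 36-mers are repeated, no summit lies over F44E5.5 or the arms of the hsp-16.1 cluster. F44E5.4 has 1 low peak (18.6) at its 3′ end, at the edge of its repeated stretch. The F44E5 peak (278.8) stands over the unique stretch between its genes.

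The stretches of the hsp-16.1 cluster named above were also stretches of repeated sequence. The share of 36-mers that occur once in the genome was 3.52% in the promoter window of hsp-16.1, 6.78% in that of hsp-16.11 and 0% in those of hsp-16.48 and hsp-16.49, and it was 0% between the 5′ ends of each pair of the cluster. For the median promoter window it was 100%, and over the nuclear genome 92.1%. No 100-mer between those 5′ ends occurred once either. The windows of hsp-70 (100%), hsp-16.2 (98.9%) and hsp-16.41 (98.7%) were almost wholly unique. For F44E5.4 and F44E5.5 the share was 23.4% each. Across all promoters, windows with under 10% unique 36-mers had a ranked peak in 30 of 253 cases (11.9%) and a main-list peak in 0. Windows with 10 to 50% had a ranked peak in 67.0% of 361 cases and a main-list peak in 2.22%. Windows with 90% or more had a ranked peak in 77.5% of 17388 cases and a main-list peak in 2.33%. How the authors treated reads that match several places is not given in the sources used here, and its part in the missing peaks was not tested.

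**Figure D4:**
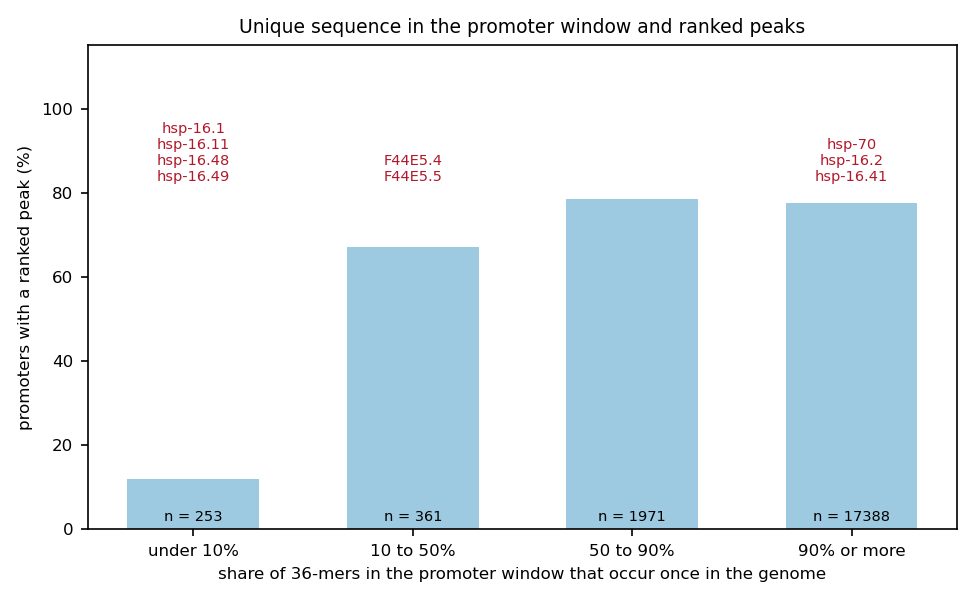
Share of protein-coding promoters with a ranked peak (percent), by the share of 36-mers in the promoter window that occur once in the genome; n is the number of promoters in each class, and red names give the members in it. The share is 11.9% in the class that holds hsp-16.1, hsp-16.11, hsp-16.48 and hsp-16.49, against 77.5% in the class that holds hsp-70, hsp-16.2 and hsp-16.41. It is 67.0% in the class that holds F44E5.4 and F44E5.5.

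F44E5.4 and F44E5.5 are near copies as well, but the sequence between them is not. The genes were identical in 2193 of 2210 aligned positions (99.2%), and 1.84% of the 36-mers of F44E5.4 and 2.08% of those of F44E5.5 occurred once. Between their 5′ ends the share was 86.7%, and within the peak it was 100%. In the ranked list of both replicates together no peak touched the 2096 bp to the left of the peak or the 2503 bp to its right, which hold nearly all of both genes. A ranked peak of low signal value, 18.6, had its summit in F44E5.4 near its 3′ end, at chrII:11757014-11757283. The next main-list peak, chrII:11761995-11762264, lay past the 3′ end of F44E5.5 and overlapped the pseudogene WBGene00009690, with a signal value of 67.3 and a score of 919.

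A 3-unit element lay within 50 bp of the highest promoter summit at 4 members, the F44E5 pair and the hsp-16.2 pair, and these are 2 summits. The F44E5 elements lie from 48 to 293 bp along the 350 bp between the 5′ ends. With that spacing almost any summit there would have counted. A 3-unit element lay within 50 bp of 24 of 1419 main-list summits (1.69%) and of 776 of 112494 ranked summits (0.69%). A 4-unit element lay at the F44E5 summit and at 1.34% of main-list summits. Of the 24, 4 were in promoter windows: the F44E5 peak and those of R107.5 (signal value 111.5, 228 bp upstream), eri-12 (89.0, 849 bp) and ZK1053.2 (73.4, 590 bp). Of all 1419 main-list peaks, 398 were the highest at a promoter, so at least that many lay in promoter windows. Like the F44E5 peak, 57 of the 398 main-list peaks that were the highest at a promoter lay upstream of a gene on each strand (14.3%).

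Main-list peaks were at 2 of 9 members, beside 7 of 72 related chaperone and heat shock genes outside them (9.72%) and 2.36% of all promoters. In the replicates' own lists the counts were 2 of 9 members in each, beside 4 of the 72 genes in replicate 1 and 3 in replicate 2. These lists were made by family and function, with earlier results of these data known, and no test was made. Of 8 other Hsp70 family genes hsp-1 was the 1 with a main-list peak (signal value 94.9, 425 bp upstream). It encodes the constitutive cytosolic Hsp70 and carried 2 heat shock elements in its window. Without a main-list peak, hsp-110 carried 2 and hsp-6 carried 1. An element was in 3 of these 8 genes and in 11 of the 72 (15.3%). The median of the highest signal values of these 8 genes was 51.5, beside 29.8 over all promoters with a peak. None of 12 other small heat shock genes had a main-list peak, with a median of 32.6 and a highest value of 52.8. Of 46 other chaperones 6 had one. The highest values were at cct-8, a subunit gene of the cytosolic chaperonin (157.8), hsp-60, the mitochondrial chaperonin (146.0), and dnj-13, an Hsp40 gene (132.2), and these 3 peaks lay in both replicates' own lists. The other genes with a main-list peak were the J-domain gene dnj-28 (101.7, also in the own list of replicate 1), the Hsp70 cochaperone gene bag-1 (75.8) and the J-domain gene dnj-4 (61.6). None of 6 regulators of the heat shock response had a main-list peak: hsf-1, which encodes HSF-1, had a highest signal value of 10.01, skn-1 had 43.9, and ddl-2 had no ranked peak. Each of these values was below the 278.8 of the F44E5 pair.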

How the data were processed

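Chromatin of 2 biological replicates of 1 group was precipitated, per the labels, and reads were aligned to ce11 for each replicate, per the file headers. Neither aligner nor peak caller is named in the sources used here. The members and all gene lists were chosen with earlier results of these data known.

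The deposited lists give a signal value per peak, which is the authors' own, with no stated normalization, and was used to order and describe peaks of the same list; values of the replicates' lists stand side by side with no mean, since their scales may differ. They also give a deposited score, which ends at 1000. The ranked lists add the −log10 of the global IDR, deposited by the authors. Lists for both replicates together and for each replicate were used. The former were main (1419 peaks), conservative (1062), ranked behind the main list (112494) and ranked behind the conservative list (102466). Each replicate had a thresholded list (254 and 386) and a ranked list (52508 and 70327). No read counts are in these files, so depth is unknown and no interval was computed.

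Genes came from Ensembl release 115 on the same assembly as ce11. Ensembl gives the symbol hsp-16.1 also to hsp-16.11 and hsp-16.48 also to hsp-16.49, so these were told apart by WormBase sequence name and identifier. Of the symbols listed, daf-21 and hsf-2 were not matched; hsp-90, another name of daf-21, was. Motifs were sought as exact letters on both strands of the RefSeq sequence of that assembly, overlapping matches of one motif were joined, and the search was tested on simulated sequence. Sequences were aligned globally with Biopython 1.88 (match 1, mismatch -1, gap opening -3, gap extension -0.5). The count of 36-mers that occur once, on either strand, was added after the peaks had been seen. All 9 members were to be named, with every comparison gene that had a main-list peak, the 5 genes on each side of the highest member by signal value, and every gene with a heat shock element at a main-list promoter summit. With 1 group, no control and members chosen from the readout, no statistical test was made. Python 3.11.15 with numpy 2.4.6 and matplotlib 3.10.9 was used. Alternatives changed the list, the replicate, the promoter and summit windows, the overlap rule and the motif.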

Additional observations from a re-analysis of the deposited data

How the results depend on the processing

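F44E5.4 and F44E5.5 had a peak at the promoter under all alternatives of list, window, overlap and replicate. The count of members was 4 with a window of 2000 bp upstream, where the peak between the 3′ ends of hsp-16.48 and hsp-16.49 also counted for hsp-16.1 and hsp-16.11, and hsp-16.11 then had a highest signal value of 50.3. With an overlap of at least 1 bp in place of the summit the count was 3, beside 557 of 19973 promoters (2.79%). The edge of that same peak then reached the window of hsp-16.1. The share of all promoters with a peak was 1.19% with 500 bp upstream, 3.80% with 2000 bp, 1.44% with peaks above the median signal, 1.46% with peaks of the highest score only, and 0.556 to 0.791% in single replicates. Comparison genes with a peak numbered 3 to 4 in single replicates. There the signal values, from lists with their own scale, were 135.1 to 151.3 for F44E5.4 and F44E5.5, 20.6 in both for hsp-70, and 18.4 to 23.4 for hsp-16.2 and hsp-16.41. For hsp-16.11 single replicates and the 500 bp window gave no peak and no value. By the summits of both replicates together, members with a heat shock element at the summit numbered 2 within 25 bp and 2 with 4 units, the F44E5 pair in both. They numbered 5 within 100 bp, 5 with 2 units and 5 with 1 mismatch allowed. The share of main-list summits with an element was 1.34% within 25 bp and 2.68% within 100 bp. It was 10.01% with 2 units, 1.34% with 4 units, 6.13% with 1 mismatch allowed, and 1.55 to 5.51% in single replicates. No paired analysis was possible because the series has 1 group. Depth was unknown, and 2 replicates with lists of their own scale give no SD.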

Other observations

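Outside promoter windows lay 20 of the 24 main-list summits with a heat shock element of 3 units within 50 bp, 10 of them outside genes and 10 within a gene. Of all 1419 main-list peaks, at least 398 lay in promoter windows. The highest of the 24 after the F44E5 peak was at chrIV:15059212-15059481, with a signal value of 266.7, and it lay in both replicates' own lists. The median signal value of the 24 peaks was 77.8, beside 77.0 for all main-list peaks, and 19 of them had a 4-unit element. A heat shock element lay at 14 of 254 summits (5.51%) of the own list of replicate 1 and at 6 of 386 (1.55%) of that of replicate 2. Why the lists differ was not tested.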
